A study of Rattus norvegicus with 9 samples.

Results

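Axon guidance ligands and receptors were taken from the FPKM table of rat hippocampus as the genes whose symbol belongs to the semaphorins of classes 3 to 7, the plexins, the neuropilins, the ephrins, the Eph receptors, the netrins and netrin-G proteins, the Dcc, Neo1 and Unc5 receptors, the Slits or the Robos. The choice used symbols and no expression value, and it gave 71 of the 21138 genes in the table. Earlier results of these data were known when it was made, so counts set against all genes are a description. They are 20 semaphorins, 9 plexins, 2 neuropilins, 8 ephrins, 13 Eph receptors, 6 netrins and netrin-G proteins, 6 receptors of the Dcc, Neo1 and Unc5 group, 3 Slits and 4 Robos. FPKM, fragments per length of transcript and per total of mapped fragments, sets a level per transcript length and per library size.

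The samples came from male, wild type Sprague-Dawley rats, which the methods give as 6 months old at purchase. INS+VD rats had both common carotid arteries tied off, which lowers the blood flow of the forebrain and serves as a model of vascular dementia, and then received insulin into the nose at 1 U/kg each day, to day 56. VD rats had the same ligation and received saline by the same route. CK rats had no operation, and the methods describe them both as given no treatment and as given saline. CK rats therefore differed from VD rats in the whole operation, and no sham-operated library was analysed here. Each group has 3 libraries that the submitters call biological replicates, how they relate to single rats is not given in the sources used here, and the p-values below measure the spread between these samples. VD vs. CK asks how the vascular dementia model differs from rats with no operation, INS+VD vs. VD asks how insulin-treated and saline-treated model rats differ, and INS+VD vs. CK sets insulin-treated model rats against rats with no operation.

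Growing axons read cues that attract or repel them. Netrins attract through Dcc and repel through Unc5 receptors, semaphorins act on plexins, often with a neuropilin as the part that binds the ligand, ephrins act on Eph receptor tyrosine kinases between touching cells, and Slits repel through Robos. In the adult hippocampus many of these genes stay on in neurons, where they are known for roles at synapses and in the upkeep of connections.

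The libraries differed in ways that the groups do not explain, and some marker sums moved with the groups. VD replicate 1 had 14428 genes above 0 FPKM, against 17441 to 18088 in the other 8 libraries, and it listed 568 genes at 0 that were above 1 FPKM in every other library. An exact 0 there can be a failed estimate, so it is written as listed at 0. Summed over 6 markers of excitatory neurons, including Slc17a7 and Camk2a, the level in replicates 1, 2 and 3 was 1633, 65.9 and 1674 FPKM for INS+VD, 352, 53.8 and 578 FPKM for VD and 1812, 1796 and 521 FPKM for CK. Thus the sum was low in all 3 VD libraries, INS+VD replicate 2 and CK replicate 3. Not every marker followed it. Neurod2 was highest in CK replicate 3, at 105 FPKM. Neurod6 was 35.0 FPKM in VD replicate 1, against 35.9 FPKM in INS+VD replicate 1. Of 6 markers of the hippocampus, Wfs1 made up most of the sum except in CK replicate 3. The sum was 10.4 to 199 FPKM in INS+VD, 8.28 to 84.2 FPKM in VD and 18.9 to 72.2 FPKM in CK. The other 5 stayed below 10 FPKM in all libraries, and Prox1 and Zbtb20, which mark granule cells and hippocampal neurons, were listed at 0 in VD replicate 1. Markers of other regions were high in single libraries: 6 cerebellar markers summed to 1731 FPKM in CK replicate 3 against at most 60.5 FPKM elsewhere, 6 hindbrain markers to 105 FPKM in VD replicate 2 against at most 7.32 FPKM elsewhere, 6 olfactory bulb markers to 130 FPKM in INS+VD replicate 2 and to 178 and 292 FPKM in VD replicates 1 and 3 against at most 18.4 FPKM elsewhere, and 5 choroid plexus markers to 1698 FPKM in INS+VD replicate 1 against at most 20.6 FPKM elsewhere. In INS+VD replicate 2 the olfactory bulb sum was mostly Th, at 122 FPKM. Tbx21 was 0.045 FPKM and Doc2g 3.52 FPKM there, and Frmd7 and Eomes were listed at 0. In VD replicates 1 and 3, Doc2g was 101 and 128 FPKM and Tbx21 8.87 and 22.2 FPKM. The sum of 3 thalamic markers was 53.7 FPKM in INS+VD replicate 2, with Tcf7l2 at 41.5 FPKM, against at most 15.3 FPKM elsewhere. That of 6 oligodendrocyte markers differed widely within groups. In replicates 1, 2 and 3 it was 6672, 8045 and 1319 FPKM for INS+VD and 1256, 14479 and 1925 FPKM for VD. For CK it was 4016, 4362 and 4977 FPKM. Other sums moved with the groups. The sum of 6 markers of microglia and macrophages, none of them at 0 in a library, was 64.7 to 98.5 FPKM in INS+VD, 112 to 181 FPKM in VD and 37.1 to 91.0 FPKM in CK, and that of 4 markers of meninges and fibroblasts was 23.5 to 29.6, 31.6 to 73.8 and 15.9 to 27.7 FPKM in the same order, so that VD was above both other groups for each. The sum of 5 striatal markers was 31.0 to 88.3 FPKM in INS+VD, 13.5 to 18.1 FPKM in VD and 5.67 to 79.1 FPKM in CK, and that of 4 hypothalamic markers was 5.31 to 19.1, 1.10 to 1.88 and 0.801 to 2.80 FPKM in the same order, so that INS+VD was above VD for each. Of the hypothalamic markers, Hcrt and Nkx2-1 were listed at 0 in all VD libraries. Hcrt was also listed at 0 in CK replicates 2 and 3, and Nkx2-1 in CK replicate 3. Single markers did not all follow the microglia and meninges sums. Cx3cr1 was lowest in VD replicate 1, at 2.69 FPKM, and Col1a1 in VD replicate 2, at 3.59 FPKM. Aif1, Itgam, Dcn and Slc6a13 were above both other groups in all VD libraries. The part of all these differences in the results on axon guidance genes was not tested. The samples are bulk tissue, in which fewer cells of a type and less RNA per cell cannot be told apart.

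Of the 71 genes, 68 reached 0.5 FPKM in at least 3 of the 9 libraries and entered the test, a limma model on log2(FPKM + 1) fitted to 15099 genes. The 3 that did not were Epha1, Robo4 and Ntn5. Ntn5 had 0.486, 0.154 and 0.279 FPKM in INS+VD, 3.61, 0.155 and 1.01 FPKM in VD, against 0.391, 0.121 and 0.165 FPKM in CK, so that only VD replicate 1 stood well above 1 FPKM. The mean over all libraries was at least 10 FPKM for 25 of the 71 genes. The median of the 71 levels was 7.90, 7.55 and 9.18 FPKM in the INS+VD libraries, 2.95, 4.26 and 8.38 FPKM in the VD libraries and 8.49, 7.61 and 4.31 FPKM in the CK libraries. VD replicates 1 and 2 and CK replicate 3 were the low ones, and VD replicate 3 was within the range of the INS+VD and CK libraries. Of the 68 tested genes, 42.6% had their lowest value in VD replicate 1, 17.6% in VD replicate 2 and 26.5% in CK replicate 3, against 36.6%, 13.5% and 12.6% of all genes tested. Their highest value fell in INS+VD replicate 3 for 27.9%, against 7.51% of all genes tested. In VD replicate 1 it fell for 2.94%, against 25.9% of all genes tested, the largest share of any library. That library also had the largest FPKM sum, 635759, against at most 548857 elsewhere.

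**Figure D1:**
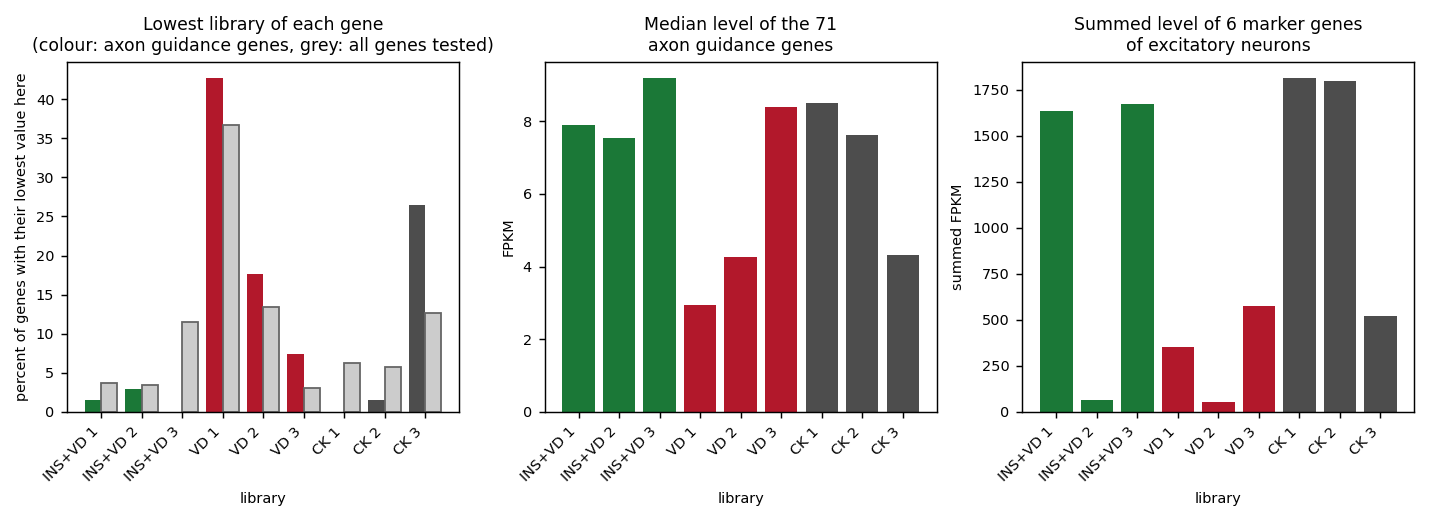
Left, percent of genes that had their lowest value in each library, coloured bars for the 68 axon guidance genes tested and grey bars for all genes tested; middle, median FPKM of the 71 axon guidance genes; right, summed FPKM of 6 excitatory neuron markers. Green bars are INS+VD, red bars VD and dark grey bars CK, replicates 1 to 3 each; the median level was lowest in VD replicate 1, at 2.95 FPKM, and the marker sum was lowest in VD replicate 2, at 53.8 FPKM.

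In VD vs. CK, axon guidance genes were more often lower than higher. The median log2 fold change was -0.47 over the 68 genes, against -0.02 over all genes tested, and 51 of the 68 were below 0. No member passed the threshold of an adjusted p of at most 0.05 with a log2 fold change of at least 1 in size, in limma with Benjamini-Hochberg adjustment, and none of all genes did in either direction (0% background). At an unadjusted p of at most 0.05 with the same fold change, 9 members were lower, 13.2% of those tested, against a background of 4.89%, and 0 were higher, against a background of 3.89%. These 9 were Plxna4, Efna5, Sema7a, Unc5a, Ephb2, Epha7, Unc5d, Plxna1 and Unc5c. At an unadjusted p of at most 0.05 with any fold change there were 11, or 16.2%, against a background of 12.7%. All 3 VD libraries were below all 3 CK libraries for 12 members, against a background of 8.27%, and above them for 0, against 9.74%.

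In INS+VD vs. VD the medians had the opposite sign, 0.55 over the 68 genes and 0.04 over all genes tested, and 57 of the 68 genes were above 0. By the adjusted p 0 members and 0 of all genes passed in limma. At the unadjusted p, 8 members were higher, 11.8% of those tested, against a background of 3.64%, and 0 were lower, against 2.54%. They were Unc5d, Efna5, Plxna4, Unc5a, Plxna1, Dcc, Sema5a and Unc5c. All INS+VD libraries were above all VD libraries for 14 members, against a background of 7.57%, and below them for 1, Efna4, against 7.6%. Both comparisons contain the same 3 VD libraries, so a low VD value enters both, and the 6 genes named in both lists are no separate evidence. With any fold change, 9 members, or 13.2%, were at an unadjusted p of at most 0.05, against a background of 9.38%. For 6 members, Plxna1, Plxna4, Unc5a, Unc5c, Unc5d and Ephb2, every VD library was below all 6 other libraries, against a background of 3.87%, and for 0 members every VD library was above them, against 3.69%.

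In INS+VD vs. CK no member passed either rule, and 0 were at an unadjusted p of at most 0.05 with any fold change, against a background of 1.82%. The median was 0.11 over the members and -0.00 over all genes tested, and the backgrounds at the unadjusted p were 0.636% higher and 0.305% lower. The INS+VD libraries were all above the CK libraries for 2 members, Plxnb1 and Sema3b, against a background of 5.85%, and all below them for 0, against 5.27%. The smallest adjusted p of a member in limma was 1, and the log2 fold changes ran between -0.78 and 1.31, which does not show that the groups were equal.

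**Figure D2:**
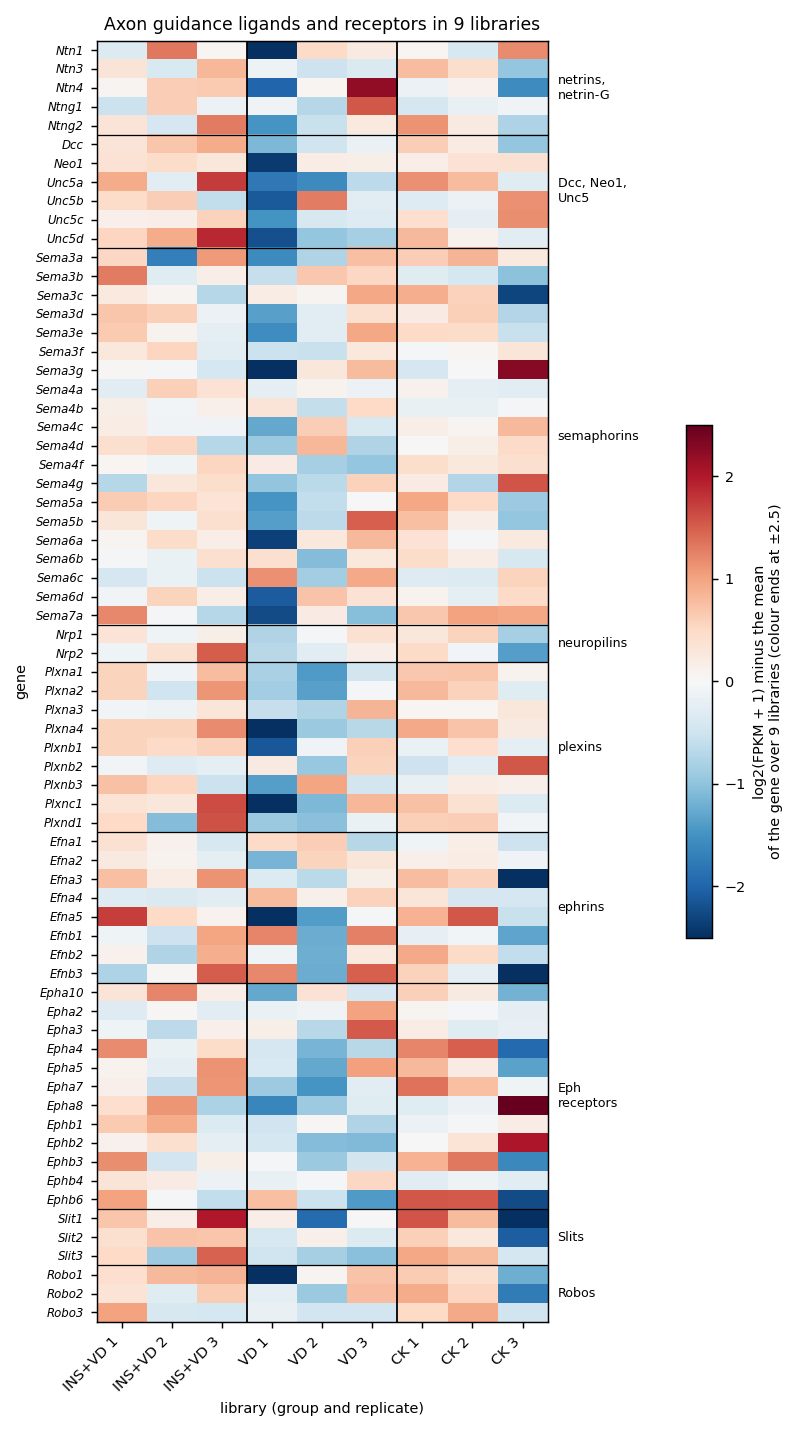
Each row is 1 of the 68 axon guidance genes tested, ordered by role, and each column 1 library, INS+VD, VD and CK with replicates 1 to 3; colour is log2(FPKM + 1) minus the mean of the gene over the 9 libraries. Blue cells gather in VD replicate 1, which held the lowest value of 42.6% of these genes, and in CK replicate 3, which held that of 26.5%.

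Promoters are shown for some members that stood out, chosen with their values known, and most of these genes were low in VD libraries. Sequences 250 bases upstream of the gene start were taken from RefSeq (build GRCr8, not the build of the positions in the expression table), and 56 of the 71 symbols matched. The GC box GGGCGG, to which Sp family factors bind, was searched on both strands and is in capitals, where CCGCCC is the box on the other strand. It was present in 30.5% of all 33469 promoters of that length, in 53.6% of the 56 and in 3 of the 6 matched genes that passed the unadjusted p in a comparison. The 56 count a single promoter per symbol, whereas the 33469 count every entry, so the sets are not alike. The netrin receptor genes Unc5a (chr17:9675664-9675913, minus strand) and Dcc (chr18:68247675-68247924, minus strand) stand side by side because Unc5a has 3 boxes and Dcc 0, while both had their lowest group mean in VD. Epha7 (chr5:47771643-47771892, plus strand) and Sema7a (chr8:67244068-67244317, plus strand) have 2 boxes each. Efna4 (chr2:177050714-177050963, minus strand), the member with all INS+VD values below all VD values, has 0 boxes. Of the 6 matched genes that passed the unadjusted p, all 3 with a box are shown. Dcc is the only one shown of those without a box. The number of CpG dinucleotides was 25 in Unc5a, 11 in Dcc, 20 in Epha7, 20 in Sema7a and 5 in Efna4, against a median of 5 over all promoters and 14 over the 56. A match is a description of these letters and no evidence of binding.
Unc5a: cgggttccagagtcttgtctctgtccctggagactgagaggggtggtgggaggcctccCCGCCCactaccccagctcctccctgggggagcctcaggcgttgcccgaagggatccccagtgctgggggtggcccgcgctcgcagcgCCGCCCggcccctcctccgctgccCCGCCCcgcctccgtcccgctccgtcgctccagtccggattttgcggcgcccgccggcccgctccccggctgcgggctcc
Dcc: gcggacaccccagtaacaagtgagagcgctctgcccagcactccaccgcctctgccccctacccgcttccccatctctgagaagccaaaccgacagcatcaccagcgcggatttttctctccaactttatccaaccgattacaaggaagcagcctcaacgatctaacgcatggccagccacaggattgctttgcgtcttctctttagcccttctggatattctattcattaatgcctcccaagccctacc
Epha7: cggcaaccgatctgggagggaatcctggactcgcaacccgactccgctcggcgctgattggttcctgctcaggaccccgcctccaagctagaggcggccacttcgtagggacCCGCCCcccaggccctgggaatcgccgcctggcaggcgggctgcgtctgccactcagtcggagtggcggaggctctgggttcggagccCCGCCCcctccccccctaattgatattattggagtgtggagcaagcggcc
Sema7a: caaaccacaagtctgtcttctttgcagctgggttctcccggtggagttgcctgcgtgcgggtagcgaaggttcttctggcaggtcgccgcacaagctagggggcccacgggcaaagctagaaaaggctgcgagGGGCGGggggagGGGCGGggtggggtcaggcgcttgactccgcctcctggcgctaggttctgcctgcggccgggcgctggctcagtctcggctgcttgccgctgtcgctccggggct
Efna4: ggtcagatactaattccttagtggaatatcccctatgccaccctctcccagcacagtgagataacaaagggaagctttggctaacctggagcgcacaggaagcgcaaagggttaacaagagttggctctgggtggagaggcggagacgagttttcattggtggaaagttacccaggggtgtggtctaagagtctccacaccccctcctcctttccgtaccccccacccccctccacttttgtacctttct

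Among the netrins, no gene passed in any comparison. Ntn1, the secreted netrin that Dcc and Unc5 receptors bind, had 3.64, 13.6 and 5.08 FPKM in INS+VD, was listed at 0 and had 7.11 and 5.88 FPKM in VD, and had 5.03, 3.42 and 12.2 FPKM in CK. Outside VD replicate 1 the groups overlapped. Ntn3 was between 3.26 and 8.77 FPKM in INS+VD, 2.84 and 4.03 FPKM in VD, against 1.81 and 8.49 FPKM in CK. Ntn4, a netrin of basement membranes, had 7.10 to 11.2 FPKM in INS+VD, 0.972 FPKM in VD replicate 1, 35.2 FPKM in VD replicate 3 and 1.60 to 7.37 FPKM in CK. The netrin-G genes, whose membrane-anchored products bind synaptic adhesion partners and not Dcc, had the highest means of this role. Ntng2 averaged 18 ± 11.3 FPKM in INS+VD, 8.49 ± 5.36 FPKM in VD and 15.7 ± 10.2 FPKM in CK (SD, n = 3 each), and Ntng1 averaged 9.51 ± 4.40, 14.1 ± 12.6 and 7.64 ± 1.01 FPKM in the same groups. For both genes the group means differed by less than the SD of at least 1 of the groups.

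With all libraries, the netrin receptors and the plexins had the lowest medians of the role groups in VD vs. CK, an order that was lost without VD replicate 1 or CK replicate 3. All 6 had a negative log2 fold change in VD vs. CK, with a median of -1.09, and all 6 had a positive one in INS+VD vs. VD, with a median of 1.15. Unc5a, a repulsive netrin receptor that is abundant in brain, lies on chromosome 17 from 10153994 to 10208360 in the table, whose build is not clear from the sources. It had 39.5, 16.4 and 70.9 FPKM in INS+VD, 5.20, 6.10 and 12.6 FPKM in VD, against 46.1, 36.1 and 16.3 FPKM in CK. Every VD library was below the 6 others. Its log2 fold change was -1.89 (SE 0.58, limma adjusted p = 0.284, unadjusted p = 0.0098) in VD vs. CK and 2.14 (SE 0.58, limma adjusted p = 0.512) in INS+VD vs. VD.

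Unc5d, another repulsive receptor of the family, had 5.66, 7.73 and 15.9 FPKM in INS+VD, was listed at 0 and had 1.35 and 1.56 FPKM in VD, and had 7.0, 3.92 and 2.76 FPKM in CK. It gave the largest positive value of all members in INS+VD vs. VD, a log2 fold change of 2.45 (SE 0.50, limma adjusted p = 0.512), and -1.54 (SE 0.50, limma adjusted p = 0.306) in VD vs. CK. With VD replicate 1 left out, where it was listed at 0, the values were 2.02 and -1.11, and both stayed past the unadjusted threshold, while the VD vs. CK call was lost without CK replicate 1. Unc5c, the receptor of the mouse rostral cerebellar malformation locus, had 4.71, 4.89 and 6.74 FPKM in INS+VD, 0.861, 2.96 and 3.15 FPKM in VD, against 5.99, 3.39 and 10.7 FPKM in CK. Its highest VD value and its lowest CK value were close, and its log2 fold changes of -1.18 (SE 0.45, limma adjusted p = 0.356) in VD vs. CK and 1.03 (SE 0.45, limma adjusted p = 0.512) in INS+VD vs. VD lost the unadjusted call without VD replicate 1, at -0.81 and 0.65. The VD vs. CK call was also lost without CK replicate 1 or 3, and the INS+VD vs. VD call without any of the INS+VD libraries or CK replicate 1.

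Dcc, the attractive netrin receptor, was low in all groups. It had 2.85, 4.0 and 4.88 FPKM in INS+VD, 0.413, 1.18 and 1.73 FPKM in VD, against 3.72, 2.53 and 0.569 FPKM in CK. The INS+VD libraries were above all VD libraries (log2 fold change 1.25, SE 0.44, limma adjusted p = 0.512), while CK replicate 3 lay among the VD libraries and VD vs. CK gave -0.55 (SE 0.44, limma adjusted p = 0.565). With VD replicate 1 left out the INS+VD vs. VD value was 0.99 and the call was lost, as it was without INS+VD replicate 3. Neo1, which binds netrins and repulsive guidance molecules, differed through 1 library: it had 20.6, 22.1 and 19.5 FPKM in INS+VD, 2.20, 18.2 and 17.7 FPKM in VD, against 17.8, 20.7 and 21.0 FPKM in CK. Unc5b, known from endothelium as well as neurons, had the second highest mean of this role and averaged 19.1 ± 7.96 FPKM in INS+VD, 18.6 ± 19.2 FPKM in VD and 21.2 ± 13.4 FPKM in CK (SD, n = 3 each), with 2.95 FPKM in VD replicate 1 and 40.0 FPKM in VD replicate 2. The spread within VD was larger than the differences between the groups.

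**Figure D3:**
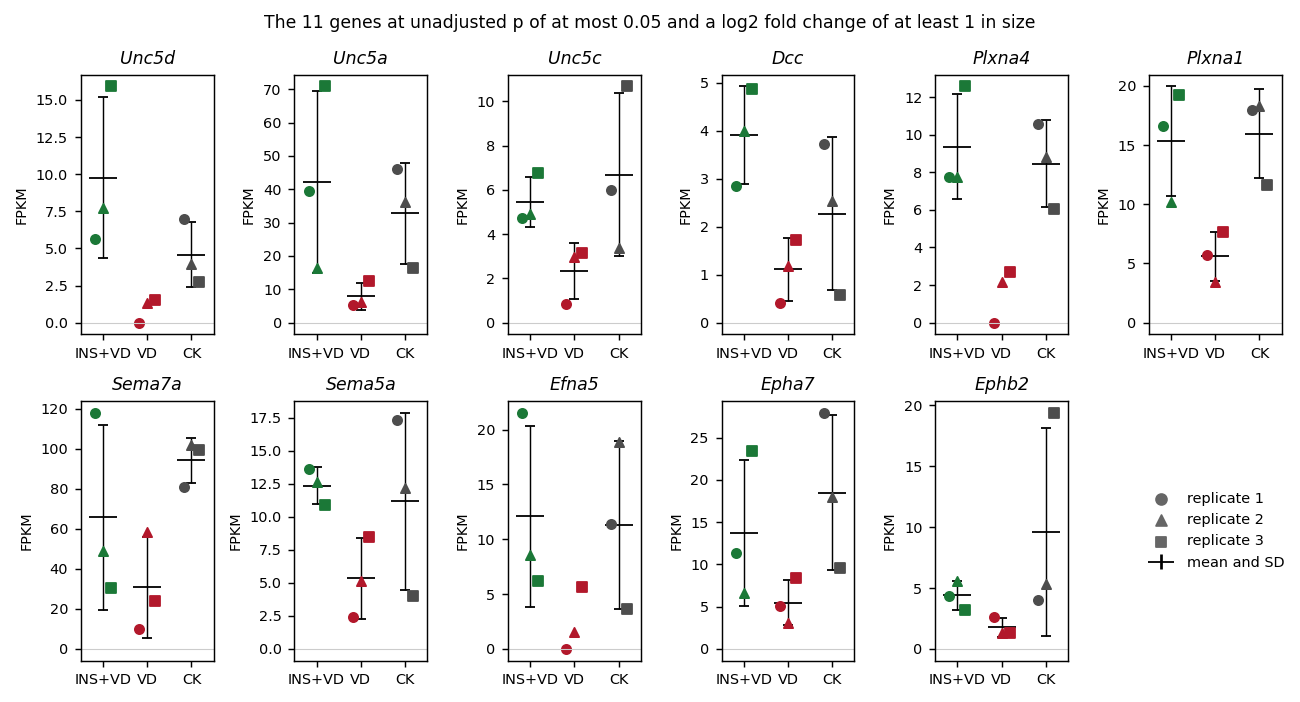
FPKM in each library of the 11 genes at an unadjusted p of at most 0.05 and a log2 fold change of at least 1 in size in VD vs. CK or INS+VD vs. VD, with INS+VD in green, VD in red and CK in dark grey; circles, triangles and squares are replicates 1, 2 and 3, and horizontal lines with bars are the mean and SD of 3 libraries, left out where a library was listed at 0. Unc5a was between 5.20 and 12.6 FPKM in VD and at least 16.3 FPKM in every other library.

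The 20 semaphorins were spread around a median of -0.44 in VD vs. CK and 0.37 in INS+VD vs. VD, and 1 passed the unadjusted p with the fold change in each comparison. Sema7a, a membrane-anchored semaphorin that binds Plxnc1 and integrins, had the highest mean of all members and stands on chromosome 8 from 62723788 to 62745868 in the table. It had 118, 49.0 and 30.3 FPKM in INS+VD, 9.89, 58.5 and 23.8 FPKM in VD, against 81.1, 102 and 99.5 FPKM in CK. The CK libraries were close together and above all VD libraries, whereas the INS+VD libraries were spread from within the VD range to above the CK range. The log2 fold change was -1.91 (SE 0.64, limma adjusted p = 0.312) in VD vs. CK and 1.18 (SE 0.64, limma adjusted p = 0.512) in INS+VD vs. VD, of which only the first passed the unadjusted threshold. Without VD replicate 1 it was -1.30 and no longer passed.

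Sema5a, a transmembrane semaphorin with thrombospondin repeats, had 13.6, 12.6 and 10.9 FPKM in INS+VD, 2.39, 5.17 and 8.50 FPKM in VD, against 17.3, 12.2 and 4.04 FPKM in CK. The INS+VD libraries were close together and above all VD libraries, with a log2 fold change of 1.19 (SE 0.53, limma adjusted p = 0.512, unadjusted p = 0.05). This call was lost without any of 6 of the 9 libraries, and at its lowest, without VD replicate 1, the value was 0.80. Sema6b, a transmembrane ligand of class A plexins, had the second highest mean, and its groups differed by less than their SD, at 41.3 ± 9.36 FPKM in INS+VD, 38.8 ± 18.2 FPKM in VD and 42.5 ± 12.4 FPKM in CK (SD, n = 3 each). Sema3g, known from endothelial cells, had 4.38 to 6.42 FPKM in INS+VD, 0.286 to 11.7 FPKM in VD and 4.44, 6.34 and 34.4 FPKM in CK replicates 1, 2 and 3. CK replicate 3 is the library with the cerebellar markers.

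The next 3 semaphorins were chosen after their values were seen. Sema6c had 5.31, 6.54 and 4.78 FPKM in INS+VD, 17.5, 3.65 and 15.4 FPKM in VD, against 5.80, 5.70 and 11.4 FPKM in CK, so that VD replicates 1 and 3 were high and VD replicate 2 was the lowest of all. Sema4f had 17.3, 15.6 and 24.7 FPKM in INS+VD, 19.4, 9.03 and 8.09 FPKM in VD, against 23.2, 20.4 and 22.4 FPKM in CK. All its VD libraries were below the CK libraries, with a log2 fold change of -0.90 (SE 0.35, limma adjusted p = 0.359), short of the fold change required. Sema3b, a secreted semaphorin, was between 3.31 and 12.1 FPKM in INS+VD, 2.58 and 7.56 FPKM in VD, against 1.63 and 3.30 FPKM in CK, with a log2 fold change of 0.98 (SE 0.50, limma adjusted p = 1) in INS+VD vs. CK. The other 13 semaphorins had means of 2.42 to 29.3 FPKM, highest for Sema4d, the ligand of Plxnb1. Their log2 fold changes were -1.10 to 0.68 in VD vs. CK and -0.54 to 0.79 in INS+VD vs. VD, with a smallest limma adjusted p of 0.499 and 0.550.

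The neuropilins, which bind class 3 semaphorins and hand the signal to plexins, did not pass in any comparison. Nrp1 averaged 9.15 ± 1.59 FPKM in INS+VD, 7.86 ± 3.26 FPKM in VD and 8.99 ± 4.32 FPKM in CK (SD, n = 3 each). Nrp2 had 3.68, 5.60 and 13.3 FPKM in INS+VD, 2.13, 3.16 and 4.65 FPKM in VD, against 5.98, 3.8 and 0.939 FPKM in CK. INS+VD replicate 3 was the high library of Nrp2 and CK replicate 3 the low one.

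The plexins are the signalling receptors of semaphorins. With all libraries, all 9 were below 0 in VD vs. CK, with a median of -1.09, and 8 of 9 were above 0 in INS+VD vs. VD, with a median of 1.07. Plxna4, the class A plexin that pairs with Nrp1 in the response to Sema3a, had 7.77, 7.74 and 12.6 FPKM in INS+VD, was listed at 0 and had 2.16 and 2.72 FPKM in VD, and had 10.6, 8.80 and 6.03 FPKM in CK. No VD value came within 3 FPKM of any other library. The log2 fold change was -2.03 (SE 0.50, limma adjusted p = 0.205, unadjusted p = 0.0029) in VD vs. CK, the largest in size of all members in that comparison, and 2.16 (SE 0.50, limma adjusted p = 0.512) in INS+VD vs. VD. Without VD replicate 1 they were -1.44 and 1.57, and both kept the unadjusted call.

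Plxna1, a class A plexin on chromosome 4 from 121217629 to 121257885 in the table, had 16.6, 10.2 and 19.2 FPKM in INS+VD, 5.74, 3.47 and 7.62 FPKM in VD, against 18, 18.3 and 11.6 FPKM in CK. In contrast to Plxna4, no library was at 0, and the lowest VD value was in replicate 2. Limma gave Plxna1 a log2 fold change of -1.38 (SE 0.37, limma adjusted p = 0.228) in VD vs. CK and 1.31 (SE 0.37, limma adjusted p = 0.512) in INS+VD vs. VD, and it kept the unadjusted call in both comparisons without any single library. Plxna2, with the second highest mean of the plexins, averaged 16.2 ± 8.59 FPKM in INS+VD, 6.62 ± 3.65 FPKM in VD and 15.0 ± 5.75 FPKM in CK (SD, n = 3 each), and its unadjusted p was 0.06 in VD vs. CK and 0.055 in INS+VD vs. VD.

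Plxnd1, a plexin of vessels and neurons, had 11.7, 3.22 and 26.2 FPKM in INS+VD, 3.69, 3.33 and 7.05 FPKM in VD, against 12.5, 12.7 and 7.58 FPKM in CK. INS+VD replicate 3 was its high library and INS+VD replicate 2 lay just below the VD libraries. Plxnc1, the receptor of Sema7a, ran from 8.7 to 23.7 FPKM in INS+VD, from 0.179 to 13.0 FPKM in VD and from 5.22 to 12.2 FPKM in CK, and it was named after its values were seen because its ligand is a member. Plxnb2, the plexin with the highest mean, followed another pattern: it had 15.8, 13.1 and 14 FPKM in INS+VD, 19.5, 8.08 and 25.0 FPKM in VD, against 11.3, 13.5 and 50.4 FPKM in CK. Its highest value was in CK replicate 3, and its log2 fold change of -0.31 in VD vs. CK was less than its SE of 0.57. The other 3, Plxna3, Plxnb1 and Plxnb3, had log2 fold changes of -0.54 to -0.28 in VD vs. CK and of 0.19 to 1.07 in INS+VD vs. VD.

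**Figure D4:**
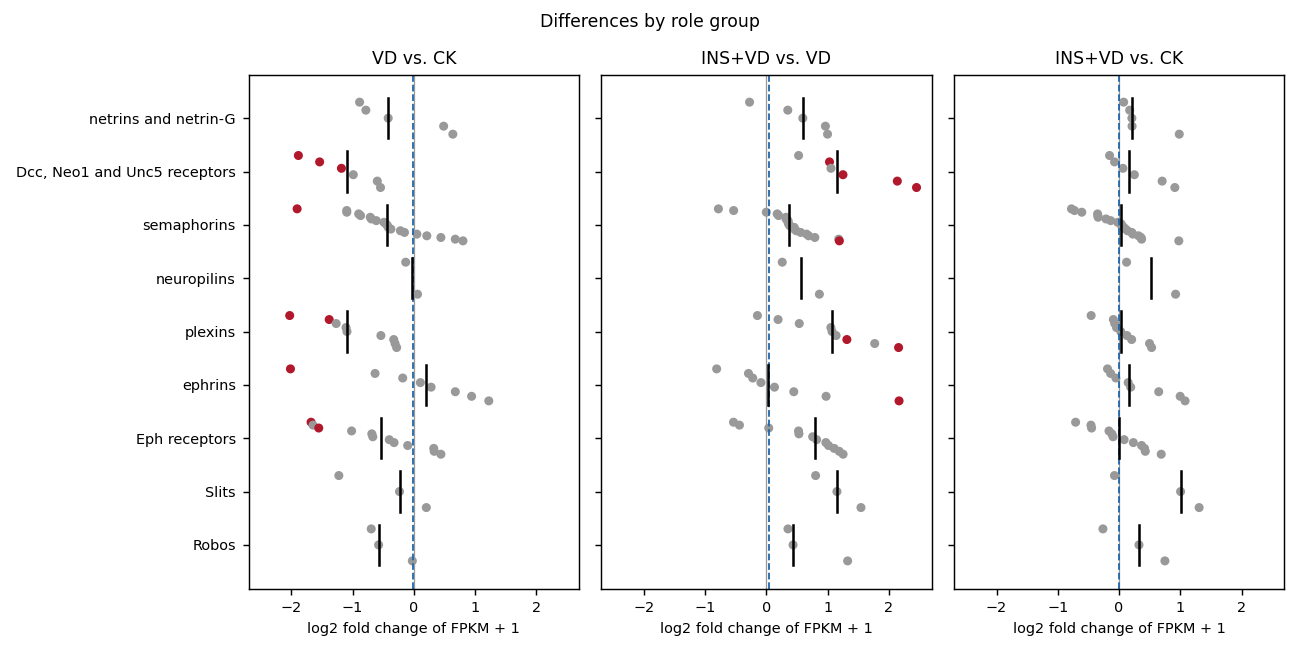
Log2 fold change of FPKM + 1 of each axon guidance gene tested, by role, with VD vs. CK on the left, INS+VD vs. VD in the middle and INS+VD vs. CK on the right; red points are genes at an unadjusted p of at most 0.05 with a log2 fold change of at least 1 in size, black bars the medians of a role and dashed lines the median of all genes tested. Netrin receptors and plexins had medians of -1.09 and -1.09 in VD vs. CK and 1.15 and 1.07 in INS+VD vs. VD, and the ephrins 0.19 and 0.02.

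The ephrins were split in direction, with 5 of 8 above 0 and 3 below 0 in VD vs. CK. Their median was 0.19 in VD vs. CK and 0.02 in INS+VD vs. VD, and 1 of 8 passed the unadjusted p with the fold change. Efna5, a membrane-anchored ligand of Eph receptors known for topographic maps, had 21.6, 8.53 and 6.22 FPKM in INS+VD, was listed at 0 and had 1.58 and 5.68 FPKM in VD, and had 11.4, 18.9 and 3.61 FPKM in CK. VD and CK overlapped, since CK replicate 3 lay below VD replicate 3. The log2 fold change was -2.02 (SE 0.78, limma adjusted p = 0.359) in VD vs. CK and 2.16 (SE 0.78, limma adjusted p = 0.512) in INS+VD vs. VD. Without VD replicate 1 it was -1.33 and 1.48, and both calls were lost. The VD vs. CK call was also lost without VD replicate 2, CK replicate 1 or CK replicate 2, and the INS+VD vs. VD call without INS+VD replicate 1.

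Efna3, the ephrin with the highest mean, had 38.3, 25.5 and 49.4 FPKM in INS+VD, 17.4, 13.6 and 24.8 FPKM in VD, against 38.6, 33.7 and 3.06 FPKM in CK. The INS+VD libraries were above all VD libraries, and CK replicate 3 was the lowest of all. Efnb3, a transmembrane ephrin, ran from 7.90 to 42.3 FPKM in INS+VD, from 5.41 to 41.8 FPKM in VD and from 1.59 to 21.8 FPKM in CK. Efna4 was low, with 0.114, 0.0722 and 0.15 FPKM in INS+VD, 1.4, 0.511 and 1.06 FPKM in VD, against 0.698, 0.0377 and 0.0387 FPKM in CK. All its INS+VD libraries were below all VD libraries, with a log2 fold change of -0.81 (SE 0.27, limma adjusted p = 0.512, unadjusted p = 0.014) on a scale that understates the change of a gene this low. The other 4 ephrins, Efna1, Efna2, Efnb1 and Efnb2, had log2 fold changes of -0.63 to 0.94 in VD vs. CK and of -0.29 to 0.45 in INS+VD vs. VD. Efna1, Efna3 and Efna4 lie next to each other on chromosome 2, and whether reads were counted by strand is not given in the sources used here.

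Of the 12 Eph receptors tested, 9 were below 0 in VD vs. CK and 10 above 0 in INS+VD vs. VD, with medians of -0.54 and 0.79. The unadjusted p with the fold change was passed by 2 in VD vs. CK and by 0 in INS+VD vs. VD. Ephb2, a receptor of excitatory synapses that interacts with NMDA receptors, had 4.38, 5.59 and 3.20 FPKM in INS+VD, 2.66, 1.34 and 1.31 FPKM in VD, against 4.05, 5.33 and 19.4 FPKM in CK. Every VD library was below the 6 others, and CK replicate 3 was far above all. The log2 fold change was -1.68 (SE 0.51, limma adjusted p = 0.282) in VD vs. CK and 0.97 (SE 0.51, limma adjusted p = 0.512) in INS+VD vs. VD. Without CK replicate 3 the first was -1.06, still past the unadjusted threshold.

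Epha7, a receptor of A-type ephrins, had 11.4, 6.58 and 23.4 FPKM in INS+VD, 5.02, 3.06 and 8.38 FPKM in VD, against 28.0, 18 and 9.55 FPKM in CK. All VD libraries were below all CK libraries, whereas INS+VD replicate 2 lay within the VD range. Epha7 gave a log2 fold change of -1.55 (SE 0.54, limma adjusted p = 0.325) in VD vs. CK and 1.11 (SE 0.54, limma adjusted p = 0.512) in INS+VD vs. VD, of which only the first passed the unadjusted threshold, and not without VD replicate 2 or CK replicate 1. Epha4, which binds ephrins of both types and had the highest mean of the receptors, had 44.9, 17.2 and 27.0 FPKM in INS+VD, 14.2, 8.07 and 11.6 FPKM in VD, against 46.6, 56.1 and 4.31 FPKM in CK. The INS+VD libraries were above all VD libraries, and CK replicate 3 was below them. Ephb6, a receptor that lacks kinase activity, had 9.53 to 31.4 FPKM in INS+VD, 5.06 to 26.1 FPKM in VD and 46.5, 45.7 and 2.42 FPKM in CK. Epha8, chosen after its values were seen, was high in CK replicate 3, with 0.792 to 5.62 FPKM in INS+VD, at most 1.5 FPKM in VD and 1.51, 1.79 and 17.2 FPKM in CK. The other 7 receptors tested, Epha2, Epha3, Epha5, Epha10, Ephb1, Ephb3 and Ephb4, had means of 1.08 to 16.1 FPKM and log2 fold changes of -0.67 to 0.44 in VD vs. CK and of -0.54 to 1.01 in INS+VD vs. VD.

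The Slits, secreted repellents, were positive in INS+VD vs. VD for all 3 genes, with a median of 1.15, and none passed the unadjusted threshold in any comparison. Slit1, the most abundant of them, had 16.6, 11.3 and 42.7 FPKM in INS+VD, 11.2, 1.89 and 9.83 FPKM in VD, against 31.7, 17.8 and 0.0118 FPKM in CK. CK replicate 3 was nearly without Slit1, and it had 0.145 FPKM of Slit2 against 4.72 and 6.23 FPKM in the other CK libraries. For Slit1 the log2 fold change was -0.24 (SE 1.20, limma adjusted p = 0.934) in VD vs. CK and 1.54 (SE 1.20, limma adjusted p = 0.590) in INS+VD vs. VD. Slit3 had 8.41, 2.56 and 17.6 FPKM in INS+VD, 3.70, 2.76 and 2.22 FPKM in VD, against 12, 10.5 and 3.89 FPKM in CK, so that all VD libraries were below the CK libraries.

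The Robos, the receptors of Slits, showed no call. Robo2 averaged 13.2 ± 4.34 FPKM in INS+VD, 11.1 ± 7.21 FPKM in VD and 13.2 ± 9.65 FPKM in CK (SD, n = 3 each), with 2.5 FPKM in CK replicate 3. Robo1 had 7.50, 10.1 and 10.5 FPKM in INS+VD, was listed at 0 and had 5.63 and 9.38 FPKM in VD, and had 8.92, 7.38 and 1.75 FPKM in CK. Robo3, known for commissural axons, was at most 1.85 FPKM in any library, and Robo4, known from endothelium, at most 0.0799 FPKM.

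The counts of members depended on single libraries. In VD vs. CK, the number lower at the unadjusted p with the fold change was 6 without CK replicate 1, or 8.96% of the members against 3.31% of all genes in that fit. It was 17 without CK replicate 3, or 25% against 5.09%. With all libraries it was 9. Without VD replicate 1 it was 7, or 10.3% against 2.46%, and 2 members were higher (Ntn4 and Sema3b), against 3.61% of all genes. The median over the members was then -0.11 in place of -0.47, with 37 of 68 below 0 in place of 51. By role, the medians without VD replicate 1 were -0.62 for the Eph receptors, -0.61 for the Slits, -0.55 for the netrin receptors, -0.45 for the plexins, -0.02 for the semaphorins, 0.02 for the Robos, 0.08 for the netrins, 0.22 for the neuropilins and 0.24 for the ephrins. Without CK replicate 3 the lowest were the Slits at -1.67, the plexins at -1.32 and the Robos at -1.10, with the netrin receptors at -0.98. In INS+VD vs. VD, the number higher was 8 with all libraries. It was 5 without VD replicate 1, or 7.35% of the members against 1.51% of all genes in that fit, and 5 without INS+VD replicate 1, or 7.46% against 2.31%. It was 15 without VD replicate 3, or 22.1% against 10.5%, and 12 without VD replicate 2, or 17.6% against 5.91%. Without VD replicate 1, the 5 were Plxna1, Plxna4, Sema4f, Unc5a and Unc5d, and the median was 0.31. Plxna1, Plxna4 and Unc5a kept the unadjusted call in both comparisons without any single library, and so did Ephb2 in VD vs. CK and Unc5d in INS+VD vs. VD. When any 1 library was left out, 0 members passed the adjusted p. Over all genes, 24 passed it with the fold change in VD vs. CK and 16 in INS+VD vs. VD without VD replicate 2. Without any other single library 0 of all genes passed.

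Other genes of the axon guidance pathway were set beside the members, as 117 named genes of which 113 were tested. In VD vs. CK, 2 were higher and 14 lower at the unadjusted p with a log2 fold change of at least 1 in size, against 3.89% and 4.89% of all genes, with a median of -0.33. In INS+VD vs. VD, 11 were higher and 1 lower, against 3.64% and 2.54% of all genes, with a median of 0.43, and in INS+VD vs. CK 0 were higher or lower. Chl1, a cell adhesion molecule that takes part in semaphorin signalling, had 22.8, 29.8 and 43.8 FPKM in INS+VD, 0.766, 10.03 and 8.7 FPKM in VD, against 38.4, 35.1 and 42.9 FPKM in CK, with log2 fold changes of -2.79 (SE 0.63, limma adjusted p = 0.202) in VD vs. CK and 2.48 (SE 0.63, limma adjusted p = 0.512) in INS+VD vs. VD. L1cam, its relative, had 23.7, 33.8 and 46.7 FPKM in INS+VD, 14.1, 14 and 16.4 FPKM in VD, against 40.3, 30.8 and 49.1 FPKM in CK. For both adhesion genes all VD libraries were below the 6 others, and in L1cam the 3 VD libraries were close together.

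Among the cytoplasmic partners, Rock2, a kinase downstream of RhoA in growth cone collapse, had 61.9, 30.4 and 63.5 FPKM in INS+VD, 19.3, 25.6 and 20.01 FPKM in VD, against 59.5, 60.1 and 49.8 FPKM in CK. Srgap3, a Rac GTPase activating protein of the family that binds Robos, gave -2.22 in VD vs. CK and 2.0 in INS+VD vs. VD. It had 27.9, 20.1 and 36.8 FPKM in INS+VD and 27.9, 28.7 and 41.7 FPKM in CK. In VD it had 1.08, 8.31 and 17.8 FPKM, lowest in replicate 1. The channel gene Trpc5, which restrains growth cones, had 4.6, 4.87 and 7.30 FPKM in INS+VD, was listed at 0 and had 1.54 and 2.38 FPKM in VD, and had 6.42, 6.32 and 3.72 FPKM in CK. Against this direction, the chemokine receptor gene Cxcr4 had 1.91, 1.66 and 0.779 FPKM in INS+VD, 5.46, 3.22 and 13.1 FPKM in VD, against 0.922, 1.73 and 3.45 FPKM in CK, with log2 fold changes of 1.35 (SE 0.49, limma adjusted p = 0.349) in VD vs. CK and -1.60 (SE 0.49, limma adjusted p = 0.512) in INS+VD vs. VD. Its VD replicate 2 lay below CK replicate 3. Mapk3, which encodes the kinase ERK1, had 113, 122 and 150 FPKM in INS+VD, 209, 170 and 153 FPKM in VD, against 81.1, 71.4 and 85.0 FPKM in CK, and was higher in VD vs. CK by a log2 fold change of 1.15 (SE 0.25, limma adjusted p = 0.2).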

How the data were processed

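RNA of hippocampal tissue was sequenced from 9 samples, 3 each of INS+VD, VD and CK. Reads were aligned with HISAT2 by the authors, who deposited FPKM values for 21138 genes with rat Ensembl identifiers. The counting program and the use of strand are not given in the sources used here, the submitters' processing notes name the mouse builds GRCm38 and mm10, and the labels and the methods name different RNA preparation kits, so positions carry no build. The table holds no counts, and the number of mapped fragments behind each value is not given in the sources used here. Ratios of the lowest values put the libraries at 0.92 to 1.02 of the depth of CK replicate 1, and no counting interval is given.

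The members and the gene lists were chosen with earlier results of these data known. Values were taken as log2(FPKM + 1), and a gene was kept if 3 or more of the 9 libraries reached 0.5 FPKM. A limma model (limma 3.58.1, R 4.3.3) with 3 groups and a trend of the prior spread was fitted to all 9 libraries, with Benjamini-Hochberg adjustment over 15099 genes. The threshold was an adjusted p no higher than 0.05 and a log2 fold change of at least 1 in size, and a second count used the unadjusted p. An exact permutation test of 3 against 3 samples cannot go below p = 0.1 (two-sided). Named genes are those at the unadjusted threshold, the 2 with the highest mean per role, the one with the highest ratio of its highest to its second highest library, and in other lists those with the smallest p with Cxcr4 and Trpc5. Other genes were added with their values known. The fit was tested on simulated data. Alternatives changed the pseudocount, filter, scaling, prior spread, libraries and replicate block. Same-numbered libraries had correlations of -0.32 to 0.38 after removal of group means, so the numbers were not taken as pairs. Figures were drawn with matplotlib 3.10.9.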

Additional observations from a re-analysis of the deposited data

How the results depend on the processing

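Each called gene kept its direction in the alternatives run, and 0 members passed the adjusted p in limma in any of them. Over all genes, 24 passed it with the fold change in VD vs. CK and 16 in INS+VD vs. VD without VD replicate 2. With 3 libraries left out together, 1 gene passed in each of these comparisons, and in the other alternatives 0 did. With a pseudocount of 0.1, 1 member was higher in VD vs. CK and 1 lower in INS+VD vs. VD at the unadjusted p, against 0 each. Each was 1.47% of the members, against 5.06% and 3.26% of all genes in that fit. With an equal FPKM sum per library 13 members were higher in INS+VD vs. VD, against 8. That was 19.1% of the members against 5.61% of all genes, where the main fit had 11.8% against 3.64%. With equal sums the median of all genes moved to -0.19 in VD vs. CK and 0.22 in INS+VD vs. VD, with -0.64 and 0.76 for the members. Median centring moved the median of all genes to 0.16 and -0.12, with -0.29 and 0.38 for the members. With INS+VD replicate 2, VD replicate 2 and CK replicate 3 left out at once, as earlier results set them apart, there were 2 higher and 13 lower in VD vs. CK, and 13 higher and 1 lower in INS+VD vs. VD. In VD vs. CK these were 2.94% and 19.1% of the members, against 6.12% and 5.01% of all genes in that fit. In INS+VD vs. VD they were 19.1% and 1.47%, against 4.4% and 5.77%. Leaving out each library in turn gave 0 to 2 higher and 6 to 17 lower in VD vs. CK, with a median of -0.69 to -0.11. It gave 5 to 15 higher and 0 to 1 lower in INS+VD vs. VD, with a median of 0.31 to 0.88, and 0 to 1 higher in INS+VD vs. CK. The shares over all genes varied too, at 3.09% to 6.71% higher and 2.46% to 11.9% lower in VD vs. CK. They were 1.51% to 10.5% higher and 0.921% to 6.47% lower in INS+VD vs. VD, and 0.376% to 1.19% higher in INS+VD vs. CK. The median over the members in INS+VD vs. CK was -0.04 without CK replicate 3, against 0.11. Medians of small roles changed sign in VD vs. CK, among them the netrins without VD replicate 1 (0.08, against -0.42) and the Slits without CK replicate 1 (0.70, against -0.24). In INS+VD vs. VD that of the semaphorins was -0.01 without VD replicate 1, against 0.37. With the replicate block 8 members were lower in VD vs. CK, or 11.8% against 5.36% of all genes in that fit. In INS+VD vs. VD 7 were higher, or 10.3% against 3.91%. Samples of a block share only a number. With 3 libraries a group and no counts, the spread between libraries limits what these comparisons can show.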
